A study of Mus musculus with 6 samples.

Results

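The genes described here are 43 components of the machinery that copies DNA, chosen by gene symbol from a fixed list, out of 19057 named genes with a probe on the array. All 43 had a probe, 85 probes in all. Of these, 70 probes of 41 genes were bright enough to be tested, meaning a detection p-value under 0.05 on at least 3 of 6 arrays. The 2 genes without a tested probe were Mcm8 and Pola1. RNA came from testes of FVB mice at postnatal day 4 and was measured on Illumina bead arrays that shared a slide. There were 3 testis samples labelled Foxo1 null and 3 that carried the wild-type label. Foxo1 encodes a forkhead transcription factor, and the series asks what it does in the stem cells of the male germ line. The labels name no allele, Cre driver or deleted cell type, and they do not say whether a sample was 1 animal or a pool. P-values therefore measure only the spread between these samples.

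Before a cell divides, the origin recognition complex marks the places where copying can begin, and CDC6 and CDT1 load the MCM2-7 helicase there. CDC45 and the GINS complex then turn the loaded helicase into a moving fork, on which DNA polymerases alpha, delta and epsilon, the sliding clamp PCNA and its loader make the new strands. Many of these genes are transcribed under the control of E2F factors as cells enter S phase. In the testis soon after birth, Sertoli cells, stromal cells and spermatogonia all divide, so whole-testis RNA holds replication transcripts of several cell types.

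The replication genes lay mostly, and modestly, lower in the null testes, and 0 of the 41 tested genes passed the test over all probes. Each gene is given at its brightest tested probe. The change (null minus wild type, log2 scale) was below 0 for 35 of the 41 genes, against 47.9% of all 11145 tested genes, and above 0 for 6, against 52.1%. Its median was -0.29, against 0.01 over all tested genes. The range was narrow, from -0.79 for Mcm10, a factor that helps start the helicase, to 0.21 for Orc4, a subunit of the origin recognition complex. Among all tested genes 0.162% passed the adjusted threshold of 0.05 as lower and 0.00897% as higher (limma, Benjamini-Hochberg over 20597 probes). At an unadjusted p under 0.05, 9 of the 41 were lower and 0 higher, against 4.76% and 4.26% of all tested genes. These 9 genes were Orc2, Mcm2, Mcm3, Mcm5, Mcm10, Cdc45, Pold1, Rfc3 and Rpa2. Groups without overlap were found for 10 genes with null lower and 0 with null higher, against 8.08% and 6.81% of all tested genes. Genes of 1 pathway vary together between arrays, so these counts are not those of independent genes. In whole testes, fewer dividing cells and less of these transcripts per cell cannot be told apart.

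**Figure D1:**
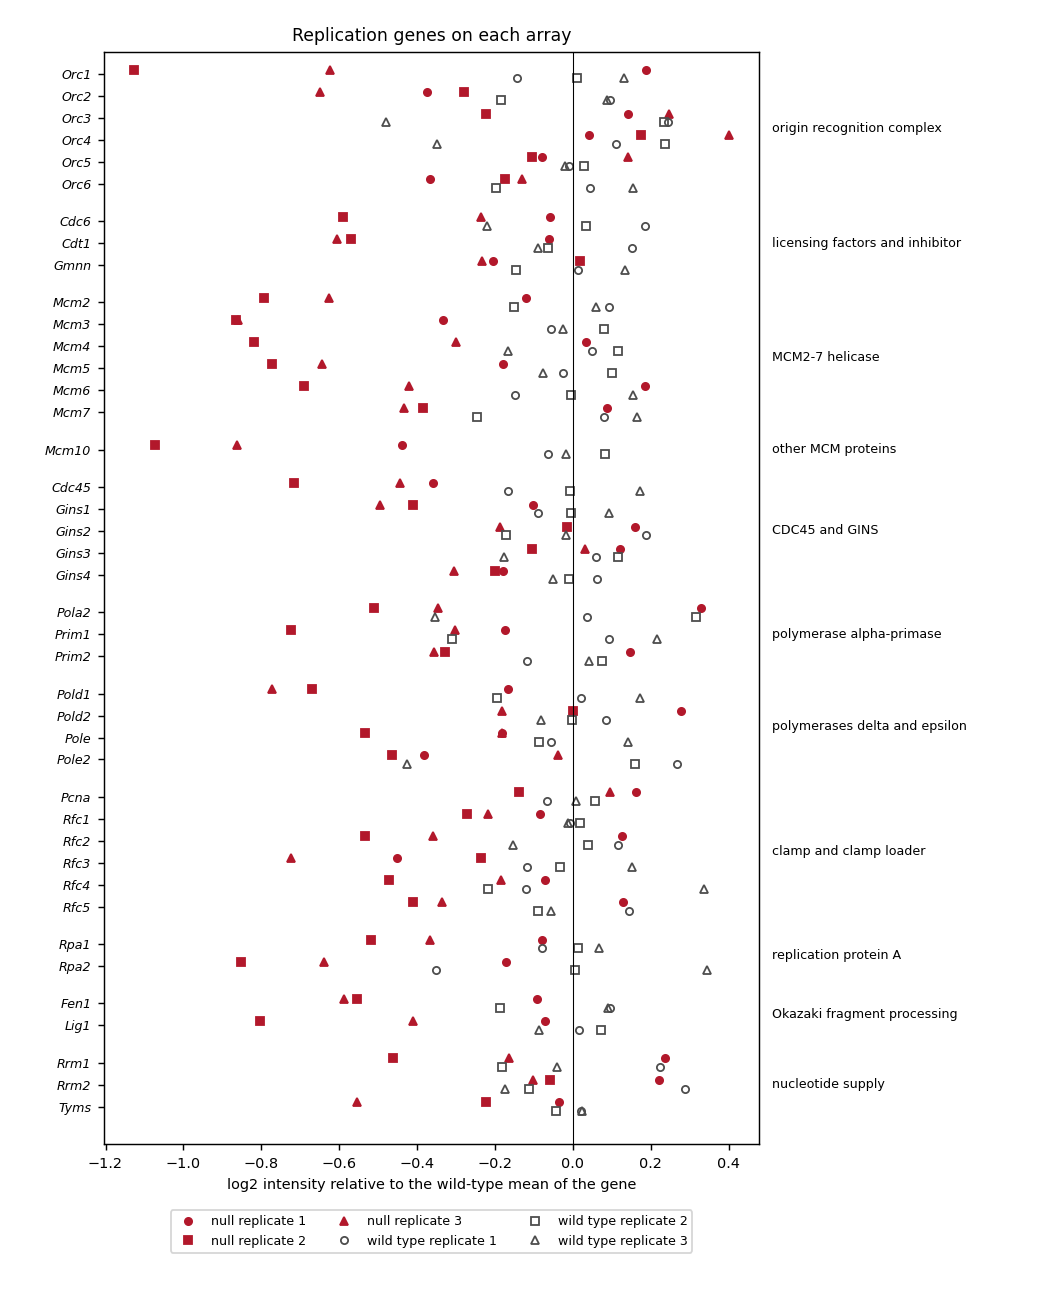
Log2 intensity of each of the 41 tested replication genes on each array, relative to the wild-type mean of that gene (x axis, log2 units). Genes run down the page by role, with filled red symbols for the 3 null arrays drawn above open grey symbols for the 3 wild-type arrays. Null replicates 2 and 3 (squares and triangles) lie to the left for most genes, and null replicate 1 (circles) lies among the wild-type arrays for many.

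The null arrays did not share the pattern equally. Null replicate 2 lay below all 3 wild-type arrays for 33 of the 41 genes, where 28.5% of all tested genes did so, and above all of them for 0 genes, where 30.6% did so. Null replicate 3 lay below for 29 genes, against 25.8% of all tested genes, and above for 4, against 26.8%. Null replicate 1 lay below for 13 genes, against 25.7% of all tested genes, and above for 9, against 24.7%. The mean log2 level of the 41 genes relative to wild type was -0.05, -0.45 and -0.34 on null replicates 1, 2 and 3, against 0.03, -0.02 and -0.01 on wild-type replicates 1, 2 and 3. Null replicate 1 thus sat near the wild-type arrays for the group as a whole, and it was the highest null array for 33 of the 41 genes, against 36.1% of all tested genes. Null replicate 2 was the lowest for 25 and null replicate 3 for 14.

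The spread inside the null group was accordingly wide for these genes. The median SD over the 41 genes was 0.26 in null and 0.14 in wild type (n = 3 each), while over all tested genes it was 0.19 in both. The SD was larger in null for 32 of the 41 genes, against 51.7% of all tested genes. The bead-to-bead standard error behind a single intensity, before background correction, had a median of 4.82% of the signal over the 41 genes and 6 arrays, with 21 to 68 beads per value.

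Leaving out single arrays changed the counts. Without null replicate 1, the median change was -0.41, 18 genes were lower at an unadjusted p under 0.05 (5.86% of all tested genes) and the groups did not overlap for 26 (14.9% of all tested genes). Without null replicate 2, 4 genes were lower at an unadjusted p under 0.05 (3.44% of all tested genes), and without null replicate 3, 3 genes (3.66%). Without wild-type replicate 3, 5 genes were lower at that p (4.28%), and without wild-type replicate 2 the groups did not overlap for 16 (12.5%). In each of these fits 0 genes passed the adjusted threshold (limma), and between 33 and 39 of the 41 changes were below 0.

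**Figure D2:**
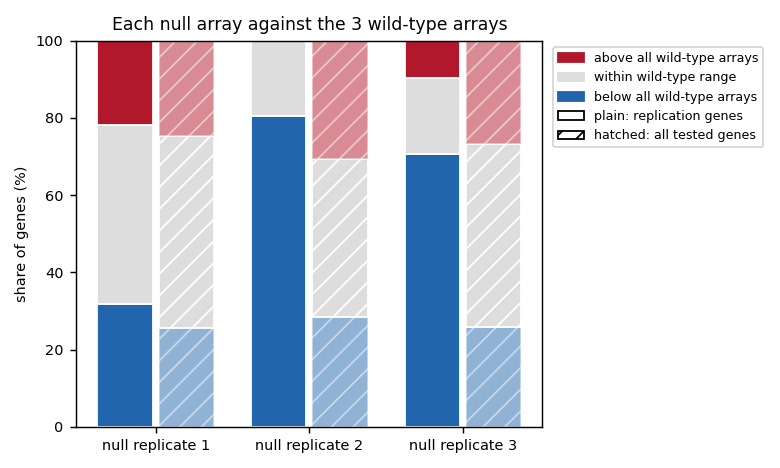
Share of genes (y axis, percent) that lay above, within or below the range of the 3 wild-type arrays on each null array, for the 41 replication genes (plain bars) and all 11145 tested genes (hatched bars). Below the range were 13, 33 and 29 of the replication genes on null replicates 1, 2 and 3, against 25.7%, 28.5% and 25.8% of all tested genes.

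RefSeq promoter windows (GRCm38.p6, 250 bases before to 50 after a start) were given for 35 of the 43 genes, 43 windows in all. The letters TTTCCCGC or TTTGGCGC, forms of the site that E2F factors bind, were searched on both strands. One or both were present in 13 of 43 windows (30.2%), against 514 of all 32851 windows (1.56%). The general promoter box CCAAT was present in 58.1% of the members' windows and 37.4% of all windows. The letters TTTGAA, those of the CHR element of genes expressed late in the cell cycle, were present in 11.6% and 17.9%. No E2F match overlapped a match to either of these. The changes of genes with and without an E2F match covered like ranges: the median was -0.31 (from -0.69 to 0.06) for the 11 tested genes with a match and -0.26 (from -0.79 to 0.21) for the 22 without one, a description with no test. A match is only a description of the letters. Only these exact letters were searched, so a window without a match can still hold other forms of the site.

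The windows of 6 genes are shown to set changes beside sequence: among tested genes with a window, the 4 with the lowest changes (Mcm10, Mcm3, Rpa2 and Pold1) and the 2 with changes nearest to 0 (Orc5 and Gins3). All are read 5′ to 3′ on the gene's strand, and capitals mark the E2F-type matches. They lie at chr2:5012742-5013041 (minus strand, Mcm10), chr1:20820263-20820562 (minus strand, Mcm3), chr4:132768110-132768409 (plus strand, Rpa2), chr7:44548766-44549065 (minus strand, Pold1), chr5:22550289-22550588 (minus strand, Orc5) and chr8:95633309-95633608 (plus strand, Gins3).
Mcm10: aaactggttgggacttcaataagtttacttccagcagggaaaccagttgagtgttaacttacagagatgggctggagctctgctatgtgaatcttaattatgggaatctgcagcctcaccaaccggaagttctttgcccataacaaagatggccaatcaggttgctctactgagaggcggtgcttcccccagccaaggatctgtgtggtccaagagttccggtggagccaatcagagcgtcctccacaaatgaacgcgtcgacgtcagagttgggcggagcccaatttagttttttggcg
Mcm3: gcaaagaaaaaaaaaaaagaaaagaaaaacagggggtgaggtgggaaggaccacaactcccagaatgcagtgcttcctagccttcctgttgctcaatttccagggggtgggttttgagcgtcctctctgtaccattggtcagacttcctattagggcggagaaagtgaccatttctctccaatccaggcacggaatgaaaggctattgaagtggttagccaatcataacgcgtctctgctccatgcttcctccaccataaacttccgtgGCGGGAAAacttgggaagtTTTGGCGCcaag
Rpa2: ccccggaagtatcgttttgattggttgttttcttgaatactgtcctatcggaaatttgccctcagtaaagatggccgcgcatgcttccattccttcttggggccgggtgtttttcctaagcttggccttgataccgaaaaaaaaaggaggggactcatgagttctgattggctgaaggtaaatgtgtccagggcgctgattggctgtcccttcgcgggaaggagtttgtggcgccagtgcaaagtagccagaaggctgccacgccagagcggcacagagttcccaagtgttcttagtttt
Pold1: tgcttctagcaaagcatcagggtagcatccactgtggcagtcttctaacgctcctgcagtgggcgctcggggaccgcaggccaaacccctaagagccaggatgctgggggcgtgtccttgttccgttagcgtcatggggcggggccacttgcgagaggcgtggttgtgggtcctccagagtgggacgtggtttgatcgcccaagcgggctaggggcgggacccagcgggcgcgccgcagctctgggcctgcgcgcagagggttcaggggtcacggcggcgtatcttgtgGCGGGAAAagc
Orc5: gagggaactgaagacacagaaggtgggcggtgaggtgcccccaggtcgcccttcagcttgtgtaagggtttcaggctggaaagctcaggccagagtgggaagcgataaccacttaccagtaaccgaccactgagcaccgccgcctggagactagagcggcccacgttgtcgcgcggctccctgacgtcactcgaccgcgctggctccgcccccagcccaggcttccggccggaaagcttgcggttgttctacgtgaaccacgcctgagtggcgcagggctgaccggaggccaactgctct
Gins3: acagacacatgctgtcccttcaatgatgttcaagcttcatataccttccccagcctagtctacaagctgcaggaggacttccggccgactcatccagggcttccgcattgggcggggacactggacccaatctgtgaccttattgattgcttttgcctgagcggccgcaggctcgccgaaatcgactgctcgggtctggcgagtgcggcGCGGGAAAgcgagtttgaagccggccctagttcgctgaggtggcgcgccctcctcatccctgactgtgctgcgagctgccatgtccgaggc
Mcm3 held 2 matches just after its start, and Pold1 and Gins3 held 1 each. Mcm10 and Rpa2, both among the lowest changes, held 0 exact matches, as did Orc5, with a change near 0. The Mcm10 window ends in tttggcg, so a match that crosses its edge could not be seen.

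Of the origin recognition complex, which marks the start sites of copying, 4 of 6 subunits had changes below 0, with a median of -0.12. Orc2 had log2 intensities of 5.15, 5.24 and 4.87 on null replicates 1, 2 and 3, against 5.62, 5.34 and 5.61 on the wild-type arrays. The groups did not overlap, with null lower, but the probe was dim and was detected on 2 of 3 null arrays. Its change was -0.43 (SE 0.16, adjusted p = 0.482), and -0.12 without background correction. Orc1, the largest subunit, had 6.70, 5.39 and 5.89 in null, against 6.37, 6.53 and 6.65 in wild type. Null replicate 1 was the highest of all 6 arrays and null replicate 2 the lowest, so the change of -0.52 had the wide interval from -1.21 to 0.16. Without background correction it was -0.19. Orc6, the smallest subunit, was at -0.22 (SE 0.16). The changes of Orc3, Orc4 and Orc5 were 0.06 (SE 0.23), 0.21 (SE 0.19) and -0.01 (SE 0.14). A second tested Orc4 probe was at -0.35 (SE 0.22) and the remaining one at 0.30 (SE 0.23), so the probes of this gene disagreed in sign.

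The licensing factors CDC6 and CDT1 and the CDT1 inhibitor geminin all had negative changes, with groups that overlapped. Cdt1 had 10.93, 10.43 and 10.39 in null, against 11.15, 10.93 and 10.91 in wild type. Null replicates 2 and 3 lay below the wild-type range and null replicate 1 within it. The change of Cdt1 was -0.41 (SE 0.19, 95% interval -0.84 to 0.01). Cdc6 was at -0.29 (SE 0.19) and Gmnn, which encodes geminin, at -0.14 (SE 0.15). The CDT1 inhibitor thus had the change nearest to 0 of the 3.

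The 6 subunits of the MCM2-7 ring, the core of the helicase, all had changes below 0, with a median of -0.44. Mcm3 had 8.31, 7.77 and 7.78 in null, against 8.58, 8.72 and 8.61 in wild type. Its groups did not overlap, and null replicates 2 and 3 lay farther down than replicate 1. The change was -0.69 (SE 0.18, 95% interval -1.10 to -0.27, adjusted p = 0.278), or 1.61-fold higher in wild type. Mcm5 had 11.99, 11.40 and 11.52 in null, against 12.14, 12.27 and 12.09 in wild type, again without overlap. That is a change of -0.53 (SE 0.18, adjusted p = 0.425). Mcm2 had 10.11, 9.44 and 9.61 in null, against 10.33, 10.08 and 10.29 in wild type. Here null replicate 1 lay inside the wild-type range, just above wild-type replicate 2, and the change was -0.51 (SE 0.20, adjusted p = 0.493).

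The other ring subunits had smaller changes with null replicate 1 at wild-type level. Mcm4 had 12.22, 11.37 and 11.89 in null, against 12.24, 12.30 and 12.02 in wild type (change -0.36, SE 0.22). Mcm6 had 10.71, 9.84 and 10.11 in null, against 10.38, 10.52 and 10.68 in wild type (change -0.31, SE 0.23), with null replicate 1 the highest array. Mcm7 had 9.95, 9.48 and 9.43 in null, against 9.94, 9.62 and 10.02 in wild type (change -0.24, SE 0.19). On the MCM2-7 ring as a whole the mean relative level was -0.05, -0.72 and -0.55 on null replicates 1, 2 and 3, against -0.0014, -0.02 and 0.02 on the wild-type arrays. The second Mcm7 probe, dimmer than the first, had 7.79, 7.02 and 6.69 in null, against 7.80, 8.11 and 8.08 in wild type. At that probe the groups did not overlap, though null replicate 1 and wild-type replicate 1 were nearly equal, and the change of -0.83 (SE 0.27, adjusted p = 0.388) was the lowest of all 70 tested probes. Mcm6 had 4 tested probes: the brighter pair was at -0.31 and -0.46 and the dimmer pair at 0.07 and 0.19.

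Mcm10, which binds the helicase and helps it to start unwinding, had the lowest change of the 41 genes. Its log2 intensities were 9.71, 9.08 and 9.29 in null, against 10.08, 10.23 and 10.13 in wild type. All null arrays were clearly below the tight wild-type group, replicate 1 the least. The mean was 9.36 ± 0.32 in null and 10.15 ± 0.07 in wild type (SD, n = 3 each), a change of -0.79 (SE 0.19, 95% interval -1.22 to -0.37), or 1.73-fold higher in wild type. It did not pass over all probes (adjusted p = 0.218), but it did with a trended and robust variance prior (adjusted p = 0.0323), the lowest of its adjusted p-values over all alternatives, which reached 0.594. On the authors' normalized linear scale Mcm10 was at 964, 649 and 736 in null, against 1233, 1353 and 1269 in wild type. A second Mcm10 probe did not overlap either, with 6.82, 6.41 and 6.28 in null, against 7.26, 7.14 and 7.06 in wild type (change -0.65, SE 0.18, adjusted p = 0.293). The remaining, dimmest one was at -0.21 (SE 0.25). Mcm8, a relative that acts in homologous recombination, was detected on 1 wild-type array only and was not tested.

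CDC45 and the 4 GINS subunits travel with the MCM ring at the fork. Cdc45 had 8.75, 8.39 and 8.66 in null, against 8.94, 9.10 and 9.28 in wild type. The groups did not overlap, with null lower, and the change was -0.51 (SE 0.17, adjusted p = 0.392). Gins1 had 9.16, 8.85 and 8.77 in null, against 9.17, 9.26 and 9.36 in wild type. The groups did not overlap, by a small margin between null replicate 1 and wild-type replicate 1, and the change was -0.34 (SE 0.16). Gins4 had 11.30, 11.28 and 11.18 in null, against 11.54, 11.47 and 11.43 in wild type. It was among the few members on which all null arrays agreed closely, with an SD of 0.07 in null and 0.06 in wild type, and its change was -0.23 (SE 0.14, adjusted p = 0.71). Gins2 and Gins3 were near 0, at -0.01 (SE 0.16) and 0.02 (SE 0.15), with 95% intervals of -0.39 to 0.36 and -0.33 to 0.36. The GINS subunits form 1 complex, and their changes spanned only from -0.34 to 0.02.

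Polymerase alpha-primase makes the short primers from which synthesis starts. Prim1, its catalytic primase subunit, had 6.66, 6.11 and 6.53 in null, against 6.93, 6.53 and 7.05 in wild type. Wild-type replicate 2 lay among the null arrays, and the change was -0.40 (SE 0.21, adjusted p = 0.638). Pola2 and Prim2, the other subunits tested, were at -0.18 (SE 0.26) and -0.18 (SE 0.18). A second Prim2 probe had 8.08, 7.90 and 7.75 in null, against 8.25, 8.21 and 8.18 in wild type, without overlap (change -0.30, SE 0.15). Pola1, the catalytic polymerase subunit, was detected on 1 null array only.

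Polymerase delta mainly makes the lagging strand and polymerase epsilon the leading strand. Pold1, the catalytic subunit of polymerase delta, had 10.81, 10.31 and 10.20 in null, against 11.00, 10.78 and 11.15 in wild type. Null replicate 1 was slightly above wild-type replicate 2 and the other null arrays well below, with a change of -0.54 (SE 0.20, adjusted p = 0.466). Its accessory subunit Pold2 was at 0.03 (SE 0.16), with null replicate 1 the highest array. Pole, the catalytic subunit of polymerase epsilon, had 9.25, 8.90 and 9.25 in null, against 9.38, 9.35 and 9.58 in wild type. The groups did not overlap, and the change was -0.30 (SE 0.16, adjusted p = 0.667). Pole2, an accessory subunit, was detected on 1 of 3 null and 2 of 3 wild-type arrays and was at -0.30 (SE 0.22) on this dim signal.

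Pcna, the ring that holds polymerases on DNA and a common marker of dividing cells, did not follow the majority. It had 9.07, 8.77 and 9.00 in null, against 8.84, 8.96 and 8.91 in wild type. The null arrays lay on both sides of the wild-type arrays, and the change was 0.04 (SE 0.15, 95% interval -0.30 to 0.38). Among the subunits of the RFC complex, which loads the clamp, Rfc3 had 7.42, 7.63 and 7.15 in null, against 7.75, 7.84 and 8.02 in wild type. The groups did not overlap, and here null replicate 2 was the highest null array; the change was -0.47 (SE 0.17, adjusted p = 0.457). Rfc1, the large subunit, had 10.05, 9.86 and 9.92 in null, against 10.13, 10.16 and 10.12 in wild type. This change was small, -0.19 (SE 0.14), but without overlap. Rfc2, Rfc4 and Rfc5 were at -0.26 (SE 0.20), -0.24 (SE 0.19) and -0.21 (SE 0.18). All 4 tested Rfc2 probes were below 0, from -0.35 to -0.14, and the second Rfc4 probe was at -0.44 (SE 0.16) without overlap.

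Replication protein A coats single-stranded DNA. Rpa2 had 9.38, 8.70 and 8.91 in null, against 9.20, 9.56 and 9.89 in wild type. The spread was wide in both groups (SD 0.35 in each), null replicate 1 lay above wild-type replicate 1, and the change was -0.55 (SE 0.24, adjusted p = 0.556). A second Rpa2 probe was tighter, with 8.84, 8.63 and 8.71 in null, against 9.17, 8.99 and 9.39 in wild type. There the groups did not overlap and the change was -0.45 (SE 0.16, adjusted p = 0.425). The remaining, dimmest Rpa2 probe was at -0.14 (SE 0.33), with overlapping groups and a wild-type SD of 0.72. Rpa1, the large subunit, was at -0.32 (SE 0.16).

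FEN1 trims the flaps of Okazaki fragments and LIG1 seals them. Fen1 had 10.73, 10.27 and 10.23 in null, against 10.92, 10.63 and 10.91 in wild type. Null replicate 1 lay within the wild-type range, and the change was -0.41 (SE 0.18, 95% interval -0.83 to 0.01). Lig1 had 10.86, 10.13 and 10.53 in null, against 10.95, 11.01 and 10.85 in wild type. Again null replicate 1 was at wild-type level, with a change of -0.43 (SE 0.20). All 4 tested Lig1 probes were below 0, and at one of the dimmer ones the groups did not overlap, with 7.06, 6.61 and 6.90 in null, against 7.34, 7.52 and 7.55 in wild type (change -0.61, SE 0.17, adjusted p = 0.293).

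Of the 3 tested enzymes that supply nucleotides, 2 had changes below 0, with a median of -0.13. Tyms, thymidylate synthase, had 11.39, 11.20 and 10.87 in null, against 11.45, 11.38 and 11.45 in wild type. Null replicates 2 and 3 lay below the tight wild-type group and null replicate 1 just inside it, for a change of -0.27 (SE 0.17, adjusted p = 0.721). Rrm1, the large subunit of ribonucleotide reductase, was at -0.13 (SE 0.21), with null replicates 1 and 2 at 10.02 and 9.33, the highest and lowest of all 6 arrays. Rrm2, its small subunit, was at 0.02 (SE 0.18), and both of its other tested probes were above 0 as well.

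**Figure D3:**
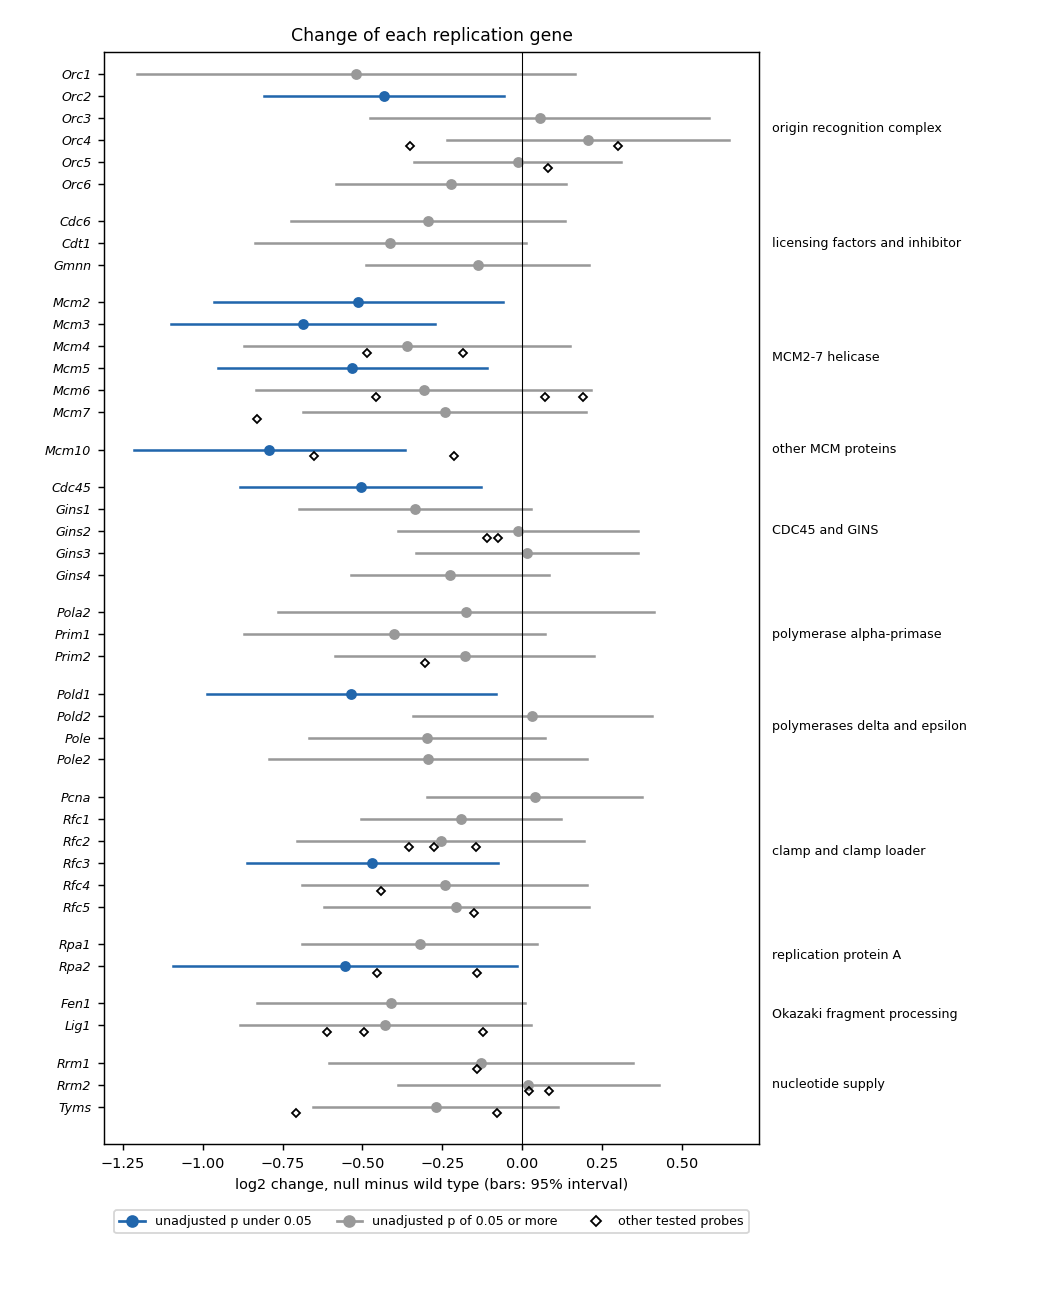
Change of each tested replication gene at its brightest probe (x axis, log2, null minus wild type), with 95% intervals from limma, genes by role. Blue marks the 9 genes with an unadjusted p under 0.05, grey the other 32, and open diamonds the further tested probes of the same genes. The filled points run from -0.79 for Mcm10 to 0.21 for Orc4.

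Further probes of the same genes lay mostly on the same side. Of 16 members with 2 or more tested probes, 13 had all of them on 1 side of 0, and 12 had all of them below 0. The exceptions were Orc4, Orc5 and Mcm6. Over all 70 tested member probes, 58 changes were below 0, against 48.7% of all tested probes, and 12 above, against 51.3%. At an unadjusted p under 0.05, 16 probes were lower, against 4.75% of all tested probes, and 0 were higher, against 4.03%. The groups did not overlap with null lower at 18 probes, against 7.73% of all tested probes, and with null higher at 0, against 6.23%. The intervals bound what these arrays allow: for 37 of the 41 genes the 95% interval lay wholly within a doubling or halving, from -1 to 1 on the log2 scale, and the lowest bound at these brightest probes was -1.22. Further probes of Mcm7, Tyms and Mcm4 reached lower, with bounds of -1.45, -1.38 and -1.25.

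Genes that act beside the core machinery also lay mostly below 0, except those of E2F, RB and S phase entry. Again 0 passed the adjusted threshold (limma) in each list. Of 23 tested fork accessory and firing factors, 20 were below 0, against 47.9% of all tested genes, with a median of -0.22. At an unadjusted p under 0.05, 3 were lower, against 4.76% of all tested genes, and the groups did not overlap with null lower for 6, against 8.08%. The 3 were Clspn, the checkpoint adaptor claspin (-0.48, SE 0.18), Wdhd1, which links the helicase to polymerase alpha (-0.52, SE 0.21), and Chtf18, of an alternative clamp loader (-0.51, SE 0.21). Of 14 tested further enzymes of nucleotide synthesis, 11 were below 0 (median -0.30), 3 were lower at an unadjusted p under 0.05 and the groups did not overlap, null lower, for 8, against the same 47.9%, 4.76% and 8.08% of all tested genes. Cad, which starts pyrimidine synthesis, had 7.49, 7.17 and 7.09 in null, against 7.97, 7.77 and 8.22 in wild type. All null arrays were lower, null replicate 1 included, and the change was -0.74 (SE 0.18, adjusted p = 0.246). Shmt2, the mitochondrial serine hydroxymethyltransferase that feeds one-carbon units, was at -0.67 (SE 0.18), and Dck, which phosphorylates deoxycytidine, at -0.39 (SE 0.14).

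Of 8 tested factors that build chromatin behind the fork, 6 were below 0 (median -0.26), against 47.9% of all tested genes. At an unadjusted p under 0.05, 2 were lower, against 4.76%, and 2 were lower without overlap, against 8.08%. Among the 8, Hat1, a histone acetyltransferase of new histone H4, was at -0.46 (SE 0.14). All 11 tested mitotic genes were below 0 (median -0.25), against 47.9% of all tested genes, and 3 were lower without overlap, against 8.08%. Of these 11, 1, Bub1b of the spindle checkpoint, was lower at an unadjusted p under 0.05 (-0.51, SE 0.19), where 4.76% of all tested genes were. The mitotic list scored -0.0009, -0.46 and -0.32 on null replicates 1, 2 and 3. Its scores on the wild-type arrays were 0.07, 0.03 and -0.11, so null replicate 1 lay within the wild-type range. Genes of E2F, RB and S phase entry were evenly split, with 9 of 18 tested below 0, against 47.9% of all tested genes, and a median of -0.05. At an unadjusted p under 0.05, 2 were lower, against 4.76%. Without overlap 6 were lower, against 8.08%, and 1 higher, against 6.81%. Within them E2f3, an activating E2F factor, had a change of -0.63 (SE 0.18, adjusted p = 0.321) and Tfdp1, the usual DNA-binding partner of E2F factors, -0.43 (SE 0.16, adjusted p = 0.466). Neither gene's groups overlapped.

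Markers of cell types moved between the same arrays, and their part in the replication values was not tested. Of 12 listed germ cell markers 9 were tested, and all 9 were below 0, against 47.9% of all tested genes. Changes ran from -2.27 for Dppa4 to -0.33 for Tex101. The groups overlapped for Dazl, Tex101 and Taf7l. Nanos3 was detected on no null array and Tdrd1 on 1, so both met the detection filter through the wild-type arrays. That filter favoured a change below 0 for these 2 markers. The scores of the germ cell list were -0.87, -1.29 and -0.82 on null replicates 1, 2 and 3, against -0.15, -0.26 and 0.40 on the wild-type arrays. Among the null arrays replicate 3 was the least low, closely followed by replicate 1. The summed normalized intensity of these markers was 2041 to 3450 on the null arrays and 4049 to 6488 on the wild-type arrays. Of 12 markers of undifferentiated spermatogonia 10 were tested, and all 10 were below 0, against 47.9% of all tested genes. Ret, detected on 1 null array and 3 wild-type arrays, also met the filter through wild type. Sums of this list were 737 to 1374 in null and 2700 to 3699 in wild type. Nanos2 was the 1 marker past the adjusted threshold (limma, change -1.91, SE 0.20, adjusted p = 0.0239), where 0.162% of all tested genes passed as lower. It was dim in null and was detected on 2 of 3 null arrays. The groups overlapped for Zbtb16 (change -0.29, SE 0.26) and Bcl6b (-0.91, SE 0.33). Gfra1 and Utf1 were not tested. The scores of the undifferentiated list were -1.14, -1.99 and -1.95 on null replicates 1, 2 and 3, where replicate 1 was the least low.

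Duct epithelium markers ran the other way. Of 9 listed, 7 were tested and all 7 were above 0. Here and for the lists that follow, 52.1% of all tested genes were above 0 and 47.9% below. Pax8 was detected on 3 null arrays and no wild-type array, and Krt19 on 3 null arrays and 1 wild-type array. Both met the detection filter through the null arrays, which favoured a change above 0 for them. Sums of the list were 1488 to 5881 in null and 1078 to 1443 in wild type. Its scores were 0.36, 1.93 and 1.38 on null replicates 1, 2 and 3. Changes in this list ran from 0.10 for Cdh1 to 2.47 for Cdh16, and the groups overlapped for Cdh1 and Krt18. Epcam and Pax2 were not tested. Peritubular myoid markers, 5 tested of 6, were all above 0 with scores of 0.29, 0.76 and 1.37, and macrophage markers, 7 tested of 8, were all above 0 with scores of 0.37, 0.65 and 0.70. Of the Sertoli cell markers 7 of 11 were tested, and Sox9, Amh and Dhh were detected on all 6 arrays. Of the 7 tested, 5 had changes above 0 and 2 below, with a median of 0.18. Without overlap, Rhox5 was lower in null, at -0.87 (SE 0.21), and Fshr higher, at 0.18 (SE 0.14). Over all tested genes, 8.08% were lower and 6.81% higher without overlap. The Rhox5 probe was dim and was detected on 1 of 3 null arrays. The list's scores, which average over both directions, were 0.01, 0.13 and -0.17 on null replicates 1, 2 and 3, against 0.08, -0.03 and -0.05 on the wild-type arrays. Leydig cell markers, 6 tested of 7, were all below 0 (median -0.27), with scores of -0.15, -0.56 and -0.58 on null replicates 1, 2 and 3, against 0.28, 0.10 and -0.39 on the wild-type arrays. The median was 0.47 for 7 fibroblast markers, 0.25 for 5 endothelial markers and -0.02 for 2 blood cell markers.

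**Figure D4:**
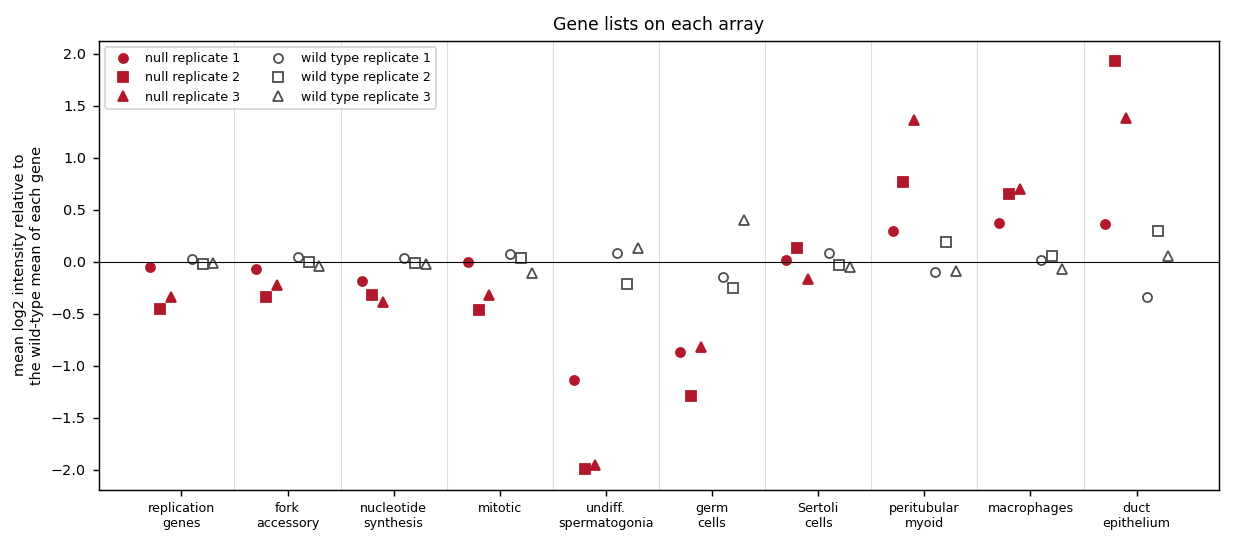
Mean log2 level of the tested genes of each list on each array, relative to the wild-type mean of each gene (y axis, log2 units). Filled red symbols are null replicates 1, 2 and 3 and open grey symbols the wild-type arrays to their right. Replication genes are at -0.05, -0.45 and -0.34 on the null arrays, and duct epithelium markers at 0.36, 1.93 and 1.38.

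As a check of the labels, Foxo1 had 2 tested probes that moved in opposite directions. One had 6.37, 5.83 and 6.69 in null, against 8.08, 8.07 and 8.19 in wild type (change -1.81, SE 0.22, adjusted p = 0.0273). The other had 8.82, 8.57 and 8.76 in null, against 5.69, 5.42 and 4.96 in wild type (change 3.36, SE 0.20, adjusted p = 0.00221). Every array lay on its own group's side at both, null replicate 1 included. A probe outside a deleted part checks nothing, and where these probes lie in the gene was not analysed here. Over the whole array, 26 probes were lower and 2 higher past the adjusted threshold, which is 0.126% and 0.00971% of 20597 tested probes, and 44.4% to 47.8% of all 45281 probes were detected on each array. These counts rest on single arrays: they were 46 lower and 24 higher without null replicate 1, 0 and 1 without null replicate 2, 1 and 1 without null replicate 3 or wild-type replicate 1, 4 and 2 without wild-type replicate 2, and 3 and 1 without wild-type replicate 3.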

How the data were processed

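Total RNA of whole testes was labelled and hybridised to Illumina bead arrays, 3 null and 3 wild type. For each of 45281 probes and each array, the scanner table deposited by the authors holds, per the file headers, a mean bead intensity, its standard error over beads, the bead number and a detection p-value; by their values, these deposited intensities were neither background-subtracted nor normalized between arrays. A second deposited table holds the authors' normalized intensity values, on a linear scale, which rank probes as the scanner signal does (Spearman correlation 1 on all 6 arrays, column medians 130.61 to 130.71); it served as an alternative. The submitters' processing notes name BeadStudio, with no version. Genome build and probe placement are not given in the sources used here. All columns were mapped to samples.

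Intensities were background-corrected and quantile-normalized with limma 3.58.1 in R 4.3.3 (normal-plus-exponential model, background from the detection p-values, offset 16) and put on the log2 scale; the offset compresses changes of dim probes. Tests were run on the 20597 probes with a detection p-value below 0.05 in 3 or more arrays. Null minus wild type was fitted with lmFit and eBayes, without covariates, two-sided, and adjusted by Benjamini-Hochberg over all tested probes. The fit was tested on simulated data. Probes were named from the platform annotation, with symbols updated through Entrez numbers to GRCm38.p6 (0 changed); 34885 probes had 1 symbol, 18 several and 10378 none. A gene is represented by its tested probe with the highest mean. The precision is limited by 3 arrays per group.

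Full values are given for genes with an unadjusted p under 0.05 or groups without overlap and for at least 1 gene of each role, and up to 3 genes are named from each list of neighbouring genes, by smallest p; full values of further members, and markers named for their detection, were added after their values were seen. The members and lists were chosen with earlier results of these data known. Alternatives were the background correction, normalization, values used, filter, variance prior, replicate block, averaging of probes and leaving out each array. Same-numbered null and wild-type arrays correlated at 0.158, -0.096 and 0.106 in their deviations from the group means, and arrays of different numbers at -0.179 to 0.09. With 3 arrays per group these values cannot settle whether samples were paired. The labels name no pairs, and the main fit used none. A slide block was not possible, because all arrays lay on 1 slide.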

Additional observations from a re-analysis of the deposited data

How the results depend on the processing

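Over the 16 alternatives, the count of replication genes past the adjusted threshold stayed at 0 except with a trended and robust prior, which called 1, Mcm10 (change -0.79, adjusted p = 0.0323; its range over alternatives was 0.0323 to 0.594). The median change ran from -0.41 to -0.21 when single arrays were left out, and was -0.17 with median scaling, -0.22 without background correction and -0.23 with the authors' values. Median scaling moved the median of all tested genes to 0.13, and relative to that the replication median was -0.29. Genes lower at an unadjusted p under 0.05 numbered 9 in the fit reported, 15 without background correction, 15 with the authors' values, 2 with median scaling and from 3 to 18 without single arrays. The shares of all tested genes were 4.76%, 5.69%, 5.65%, 2.36% and from 3.44% to 5.86%. Genes lower without overlap numbered 10 in the fit reported, 5 with median scaling and from 11 to 26 without single arrays, against 8.08%, 3.22% and from 11.5% to 14.9% of all tested genes, so fewer of all genes were lower under median scaling too.

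Of 41 genes, 33 kept their direction under every alternative run. The 8 that did not lay near 0, and 0 of them passed the adjusted threshold in any fit. With median scaling Orc5 was at 0.11 and Gins2 at 0.11, and with all probes averaged Orc5 was at 0.033. Without single arrays the ranges were -0.18 to 0.19 for Orc3, -0.092 to 0.032 for Orc5, -0.10 to 0.080 for Gins2, -0.072 to 0.076 for Gins3, -0.091 to 0.14 for Pold2, -0.021 to 0.13 for Pcna, -0.31 to 0.036 for Rrm1 and -0.082 to 0.16 for Rrm2.

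Over all probes, 26 lower and 2 higher became 45 and 8 without background correction or with the authors' values, 70 and 11 with the other normexp fit (offset 50), 12 and 2 with median scaling, 1 and 1 with no filter, 17 and 1 with detection on all 6 arrays, and 85 and 18 with the trended prior; the causes were not tested. Leaving out single arrays gave from 0 to 46 lower and from 1 to 24 higher (limma; without null replicate 2, the fit with 0 lower, 760 were lower at an unadjusted p under 0.05). With the replicate number as a block, 51 probes were lower and 17 higher, and 0 replication genes passed. The number is only a label here, since no pairing of the arrays sharing it is named. Depth of signal limits the dim genes: Orc2 and Pole2 were not detected on all 6 arrays, and 15 further probes of the members were too dim to test.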
